A study of Mus musculus with 4 samples.

Results

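The AP-2 genes Tfap2a, Tfap2b, Tfap2c and Tfap2e were followed in mouse embryonic stem cells through every probe that the platform annotation names for them, 15 of the 45281 probes on the array; by gene they are 4 of the 19057 genes that the annotation names with 1 symbol. The ATRA group was E14 cells, an established embryonic stem cell line, exposed for 2 hours to all-trans retinoic acid (ATRA), and the DMSO group was E14 cells exposed to that vehicle for the same time; all cells grew in serum medium with LIF. Each group had 2 arrays, and nothing in the labels says that they came from separate cultures, so every error and p-value here covers the spread between arrays, which may be technical. The labels give no ATRA dose, and the control arrays are called untreated in another field. Of the 15 probes, 6 belong to Tfap2b, 5 to Tfap2a, 3 to Tfap2c and 1 to Tfap2e. The family was chosen by its ATRA against DMSO values in these arrays, so those values are given for its members as a description, without p-values, and a count of members past a threshold stands only beside the same count over the array.

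AP-2 proteins are transcription factors that bind GC-rich palindromes as homodimers or heterodimers, through a basic region followed by a helix-span-helix dimerization domain. Tfap2a acts in neural crest, face and epidermis, Tfap2b in kidney and neural crest derivatives, Tfap2c in trophectoderm and primordial germ cells, and Tfap2e in the olfactory bulb. Retinoic acid is a known inducer of AP-2 genes in embryonal carcinoma cells, and Stra2, an alias of mouse Tfap2c, stands for stimulated by retinoic acid.

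Tfap2c was the AP-2 gene with a clear signal in these cells, and all 3 of its probes read higher with ATRA, by 1.36-fold to 1.76-fold. Of the 5 Tfap2a probes, 1 was detected on every array, and it read lower with ATRA. No probe of Tfap2b or Tfap2e was detected on any array (0 of 6 and 0 of 1). Detection means a deposited detection p under 0.05, which corresponded to an intensity of 104.4 to 106.3, depending on the array. In such bulk samples, more cells with a transcript and more of it per cell cannot be told apart.

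Each probe has its own scale, so a level of one probe is not set against that of another. Values on the log2 scale are background-corrected intensities plus an offset of 16, which shrinks the changes of dim probes. The brightest Tfap2c probe, ILMN_2783225, had deposited intensities of 2497 and 2460 on the ATRA arrays, against 1482 and 1409 on the DMSO arrays. Its log2 level averaged 11.23 ± 0.02 with ATRA and 10.42 ± 0.05 with DMSO (SD, n = 2 each), a 1.76-fold difference (95% interval 1.57 to 1.97). Each SD is of the probe's own arrays. Standard errors and intervals come from the limma fit, which also draws on the variance of other probes. Both ATRA arrays lay above both DMSO arrays, and the gap between the groups was larger than the distance between replicates of either group. By this probe 30 of the 10194 measured genes had a larger change in the same direction.

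The second Tfap2c probe, ILMN_2783226, read 1100 and 1103 on the ATRA arrays, against 648 and 703 on the DMSO arrays. Its log2 level was 10.0002 ± 0.003 with ATRA and 9.22 ± 0.09 with DMSO (SD, n = 2 each), 1.71-fold higher (95% interval 1.52 to 1.94). The ATRA arrays were nearly equal here, and the distance between the DMSO arrays was the larger one. The third and dimmest, ILMN_1231632, read 274 and 285 with ATRA, against 228.1 and 223 with DMSO. Its log2 difference was 0.45 (SE 0.10), or 1.36-fold (95% interval 1.18 to 1.58), again with no overlap between the groups. All 3 probes are annotated to the same Tfap2c transcript and so are repeated readings of one RNA, not independent members. The interval of the third probe reaches from 0.23 to 0.66 and those of the other probes from 0.65 to 0.98 and from 0.60 to 0.96 on the log2 scale, so the dim probe gave the smaller value.

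**Figure D1:**
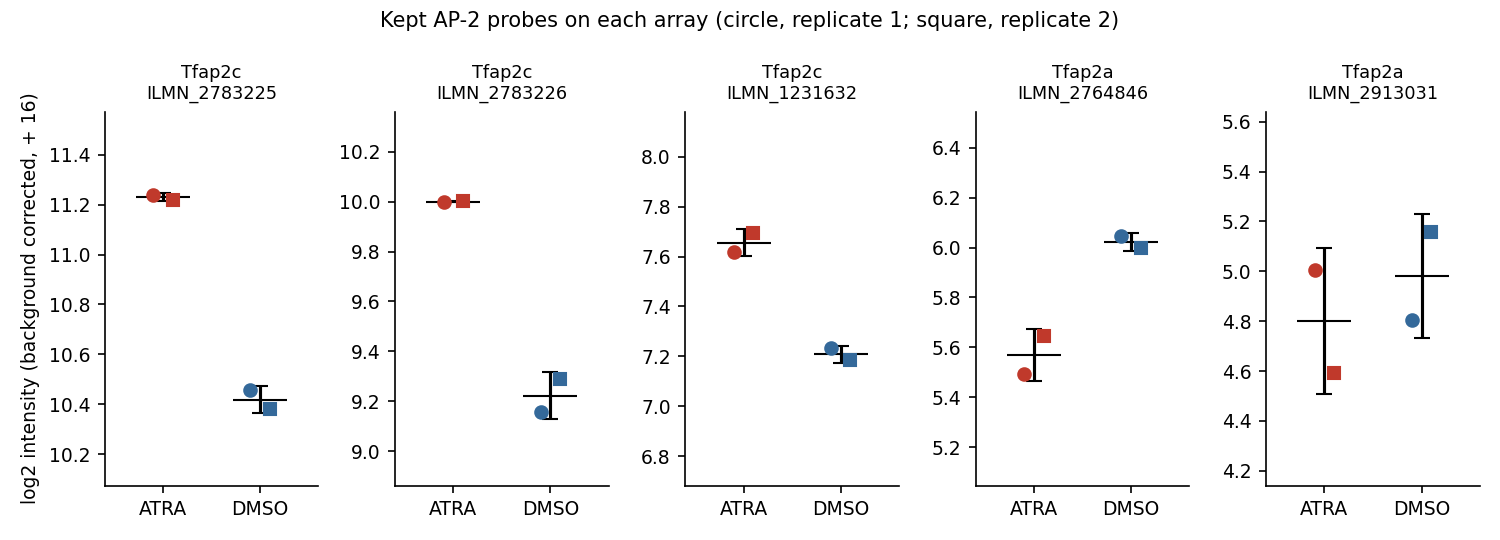
Background-corrected log2 intensity of the 5 AP-2 probes that passed the detection filter, on each ATRA and DMSO array (points), with mean and SD over 2 arrays (black); each panel has its own level but spans the same range. The 3 Tfap2c probes are higher on both ATRA arrays, Tfap2a probe ILMN_2764846 is lower on both, and Tfap2a probe ILMN_2913031 overlaps.

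In the fit across all probes, 5 of the 15 AP-2 probes passed the detection filter, and 3 of these 5, all of Tfap2c and all higher with ATRA, passed the adjusted p threshold of 0.05. Over all 19112 kept probes, 1.58% passed in either direction, with 1.26% higher and 0.324% lower; nothing is read from the members' count, since this contrast chose them. Among the 5 kept AP-2 probes, 4 had groups that did not overlap, 3 higher and 1 lower with ATRA, as did 40.8% of all kept probes, 19.6% higher and 21.2% lower. The call of the dim Tfap2c probe ILMN_1231632 was lost without ATRA replicate 1, without ATRA replicate 2 and without the intensity trend, with changes of 0.48, 0.41 and 0.45. Over the 12 alternative settings the change was 0.77 to 0.85 for ILMN_2783225 and 0.71 to 0.84 for ILMN_2783226; these too describe the values that chose the family.

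**Figure D2:**
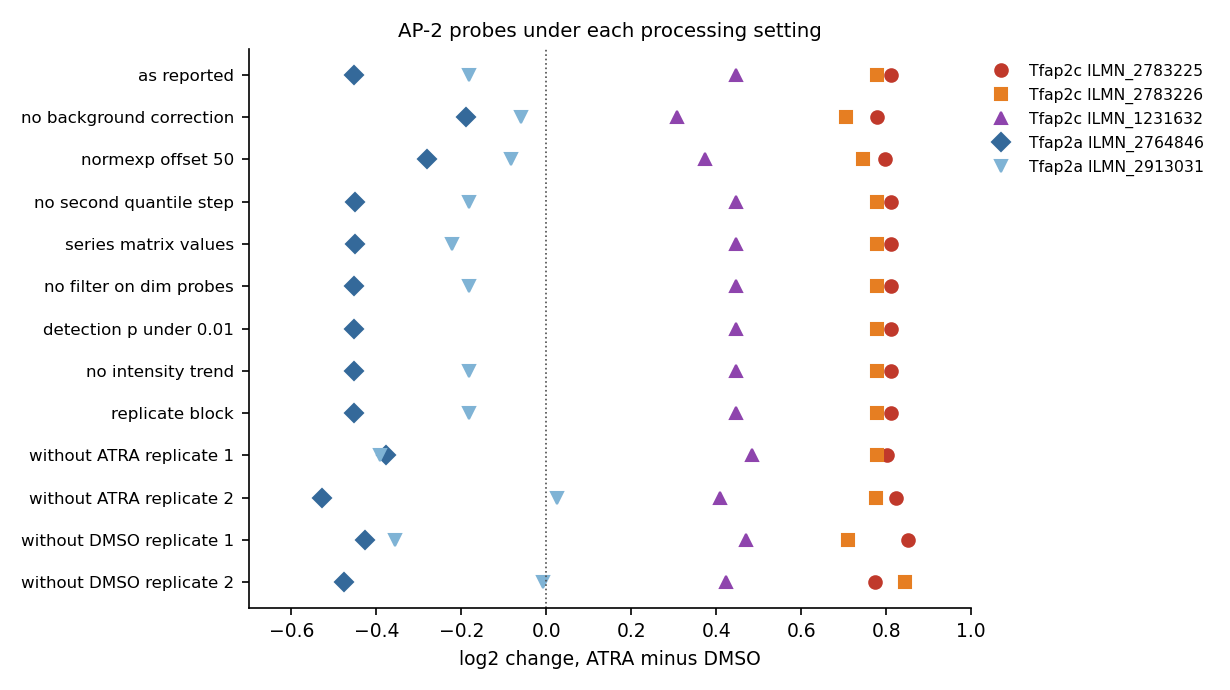
Log2 change (ATRA minus DMSO) of the 5 kept AP-2 probes under each processing setting, one setting a line. The 2 brighter Tfap2c probes stay between 0.71 and 0.85, while Tfap2a probe ILMN_2913031 crosses 0.

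Tfap2a gave weak and mixed readings. Its probe ILMN_2764846, detected on all 4 arrays, had intensities of 122.8 and 127.7 with ATRA, against 143.8 and 141.5 with DMSO. The groups did not overlap, and the log2 levels averaged 5.57 ± 0.11 with ATRA and 6.02 ± 0.04 with DMSO (SD, n = 2 each). The log2 change was -0.45 (SE 0.14, 95% interval -0.73 to -0.17). This interval is not adjusted for the number of probes, and the probe did not pass the adjusted p threshold. Probe ILMN_2913031 was at the detection limit, with 109.7 and 100.1 with ATRA, against 105.2 and 113.3 with DMSO, and was detected on 1 ATRA array and both DMSO arrays. Its groups overlapped, and its log2 change was -0.18 (95% interval -0.57 to 0.21). The remaining 3 Tfap2a probes were detected on no array, at intensities of 87.7 to 102.9 with ATRA and 89.8 to 96.7 with DMSO. Below detection, these 3 had log2 differences of 0.17 (ILMN_2726449), 0.05 (ILMN_1257627) and -0.05 (ILMN_1222212). One of these, ILMN_1257627, is annotated to a separate clone sequence, AK083762, and the other 4 Tfap2a probes to 1 transcript.

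Without background correction the change of ILMN_2764846 was -0.19, and with an offset of 50 it was -0.28, so its size depends on how the background is treated. Over the 12 alternative settings its change ranged from -0.53 to -0.19, which again only describes the values that chose the family.

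The 6 Tfap2b probes lay between 86.8 and 103.6 on the ATRA arrays and between 84.3 and 104.2 on the DMSO arrays, with a lowest detection p of 0.061. All 6 had overlapping groups. The Tfap2e probe read 94.4 and 100.03 with ATRA, against 94.1 and 96.8 with DMSO, and also overlapped. These 7 probes give only an upper bound, and a change of either gene was not detectable on these arrays. Tfap2d, the remaining AP-2 gene of the mouse, is not among the members; it is the immediate protein-coding neighbour of Tfap2b in the RefSeq gene order of GRCm38.p6. Its single probe read 85.2 and 93.9 with ATRA, against 85.03 and 84.0 with DMSO, and was detected on no array.

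**Figure D3:**
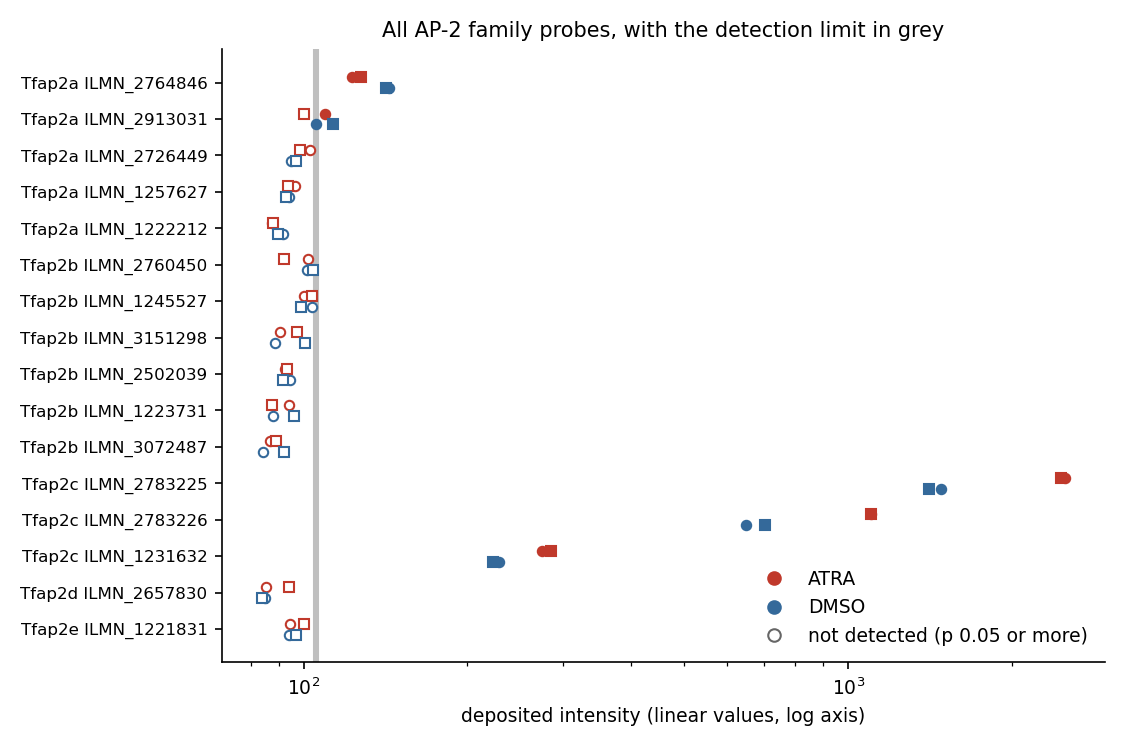
Deposited intensity (log axis) of all 15 AP-2 probes and the Tfap2d probe on each ATRA and DMSO array (circle, replicate 1; square, replicate 2); open symbols were not detected, and the grey band spans the detection limits of the 4 arrays. Only the Tfap2c probes and 1 Tfap2a probe lie above the band on all arrays.

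The arrays were checked against the labels with Cyp26a1, which encodes a retinoic acid degrading enzyme and is a direct target of its receptors: it read 204.5 and 191.4 with ATRA, against 104.6 and 111.1 with DMSO. Of 7 retinoic acid response genes named on the array 3 were kept and 2 rose, Cyp26a1 and the homeobox gene Cdx1 (0.88 and, by its other probe, 1.58 on the log2 scale, limma adjusted p = 0.00083 and 6.7e-08). Rarb, a retinoic acid receptor gene, was at 0.54 and did not pass (limma adjusted p = 0.19). It was detected on both ATRA arrays (106.4 and 109.4) and on neither DMSO array (95.4 and 91.6). Rarb was thus kept only through the ATRA arrays, and its DMSO level is an upper bound. Hoxb1, Stra8, Dhrs3 and Stra6 were detected on no array. All 9 embryonic stem cell markers, such as Pou5f1 and Nanog, were measured. By the brightest probe of each gene 0 rose and 2 fell, where 1.46% of all measured genes passed higher and 0.363% lower. The 2 were Zfp42 and Sox2 (log2 changes of -0.40 and -0.39, limma adjusted p = 0.0041 and 0.019). Both calls were lost without ATRA replicate 1 and without the trend, and that of Sox2 also without ATRA replicate 2 (adjusted p = 0.15 to 0.23), and the other Sox2 probe was at -0.23 and did not pass (adjusted p = 0.51). In the other direction, the brightest Tbx3 probe was at 0.29 and did not pass (adjusted p = 0.10), while 1 of its 3 other probes did (0.36, adjusted p = 0.030) and the rest were at 0.38 and 0.29; Nanog was at 0.20 (adjusted p = 0.25). Of 8 feeder fibroblast markers 4 were kept and 0 passed (limma; also 0 at an unadjusted p under 0.05), while Col1a2, Dcn, Lum and Postn were detected on no array. The summed background-corrected intensity of the kept fibroblast markers was 121.0 to 154.2 with ATRA and 138.1 to 145.0 with DMSO. Of 8 primitive endoderm markers 3 were kept and 1, Gata6, rose (0.75 on the log2 scale, limma adjusted p = 0.027; lost without ATRA replicate 1 or DMSO replicate 1, with no filter and without the trend, adjusted p = 0.62, 0.082, 0.080 and 0.15, and at 0.25 with no background correction), while Sox17, Afp, Ttr and Pdgfra were detected on no array. The summed intensity of the kept endoderm markers was 101.8 to 105.6 with ATRA and 94.8 to 94.98 with DMSO. Of the other kept endoderm markers, Dab2, the brightest, was at -0.27 and -0.28 by its 2 probes, and Sox7 at 0.12 and 0.001, and none of these passed (adjusted p = 0.38 or more). The part of these markers in the Tfap2c change was not tested.

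Tfap2c marks trophectoderm together with a set of other genes, which are described here. Of 17 trophectoderm and trophoblast genes named on the array, 9 were kept, and 0 passed in limma over all kept probes. Of all measured genes 1.46% passed higher and 0.363% lower, so 0 of 9 is near that share. At an unadjusted limma p under 0.05, 1 was higher and 1 lower, with no array-wide share counted at that level. The median change of the 9 genes was 0.01 on the log2 scale, beside -0.004 over all measured genes. Cdx2, a caudal homeobox factor of trophectoderm, had a change of 0.30 (95% interval 0.04 to 0.55, adjusted p = 0.33). Gata2, a GATA factor of trophoblast, had the largest change of the list and in the other direction, -0.42 (95% interval -0.71 to -0.13, adjusted p = 0.17). The keratin genes Krt8 and Krt18 were at -0.07 and 0.01, and Fgfr2, a receptor for trophoblast growth signals, was at -0.15. Gata3, Elf5, Hand1, Esx1, Plac1 and Tpbpa, which mark trophoblast, were detected on no array. The summed background-corrected intensity of the kept genes was 916 to 920 with ATRA and 940 to 950.1 with DMSO. This sum is weighted to the brightest gene, Krt8 (mean deposited intensity 540 with ATRA and 565 with DMSO), and says little of the others.

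Among 11 primordial germ cell genes, where Tfap2c is a specification factor, 8 were kept and 1 rose. This was Kit, the receptor for stem cell factor, which read 1175 and 1190.1 with ATRA, against 829 and 789 with DMSO, with no overlap. Its log2 change was 0.60 (SE 0.08, limma adjusted p = 9.7e-05), where 1.82% of all measured genes passed in either direction, 1.46% higher and 0.363% lower. The other Kit probe was at 0.50 and did not pass (adjusted p = 0.081), and the call was lost without the intensity trend (adjusted p = 0.073). The highest-level members that did not pass were Ifitm3, an interferon-induced membrane protein gene of early germ cells, at -0.21, the kinase co-activator Tcl1 at -0.18, the RNA-binding factor Dnd1 at 0.13 and the germ cell regulator Prdm14 at 0.12. Prdm1, which acts with Tfap2c and Prdm14 in germ cell specification, was detected on no array. The list median was 0.13 on the log2 scale, beside -0.004 over all measured genes. Without DMSO replicate 1 the count was 2, with Dnd1 as the added gene.

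Neural crest and surface ectoderm genes, the territory of Tfap2a and Tfap2b, were mostly undetected. Of 16 with a probe, 7 were kept, and the other 9, among them Foxd3, Sox10 and Pax3, were undetected throughout. None passed in limma (0 of 7), where 1.46% of all measured genes passed higher and 0.363% lower. At an unadjusted limma p under 0.05, 2 were higher and 2 lower, with no array-wide share counted at that level. The median change was -0.10, beside -0.004 over all measured genes. The epithelial grainyhead factor Grhl2 was at -0.45 (adjusted p = 0.069), its relative Grhl3 at 0.02, the homeobox gene Gbx2 at -0.24 and the ETS factor Ets1 at 0.35. Grhl2 passed without DMSO replicate 1, and Gbx2 passed without DMSO replicate 2.

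Partners and regulators of AP-2 proteins gave 1 call, lower with ATRA, among 11 kept genes of 13 named on the array. Of all measured genes 1.46% passed higher and 0.363% lower. The median change was -0.06, beside -0.004 over all measured genes, with 3 genes higher and 8 lower. At an unadjusted limma p under 0.05, 0 were higher and 3 lower. No array-wide share was counted for either split, so no direction is read from them. Cited2, a co-activator that links AP-2 proteins to the acetyltransferases p300 and CBP, read 622 and 672 with ATRA, against 785 and 811 with DMSO, with no overlap. It fell by 0.34 on the log2 scale (SE 0.09, limma adjusted p = 0.046), and its other probes had changes of -0.58 and -0.37 (adjusted p = 0.017 and 0.13). The call of Cited2 lay close to the threshold: without ATRA replicate 1 or 2 its adjusted p was 0.64 and 0.15 (changes of -0.28 and -0.40), without the trend 0.29, and without background correction 0.053. Npm1, a nucleolar chaperone that binds AP-2 proteins, was at 0.13, Ctnnb1, the WNT effector beta-catenin, at 0.14 (its other probes at -0.08 and -0.20, none of the 3 past the threshold), Yeats4, a chromatin reader, at -0.01, and Kdm5b, a histone demethylase found with TFAP2C in human breast cancer cells, at -0.19 (its other probes at 0.004 and 0.09). Both BTB-domain inhibitors of AP-2, Kctd1 and Kctd15, were measured at -0.17 and -0.06, and Cited1 and Cited4 were detected on no array. Without DMSO replicate 2 the count was 3, with Ctnnb1 and Crebbp added.

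Of 18 genes reported elsewhere as direct AP-2 targets, most of them in human cells, 12 were kept. Of these, 2 rose and 0 fell, where 1.46% of all measured genes passed higher and 0.363% lower. The median change was -0.005, beside -0.004 over all measured genes. The risers were Kit, already counted among the germ cell genes, and Vegfa, the vascular endothelial growth factor gene. The list was not split by whether AP-2 is reported to activate or repress each gene, so AP-2 activity is not read from it. Vegfa read 223.9 and 232.8 with ATRA, against 165.5 and 161.2 with DMSO, a log2 change of 0.81 (SE 0.11, limma adjusted p = 7.3e-05). Its groups did not overlap, while its other probe was at 0.44 and did not pass (adjusted p = 0.29). Without background correction the change of Vegfa was 0.48. The most strongly read targets that did not pass were the peroxidase gene Gpx1 at -0.15, the thrombin receptor gene F2r at 0.09, Cdh1, which encodes E-cadherin, at -0.04 and the cell cycle inhibitor Cdkn1a at -0.07. Esr1, Krt14, Ret, Cga and Tgfa were detected on no array.

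**Figure D4:**
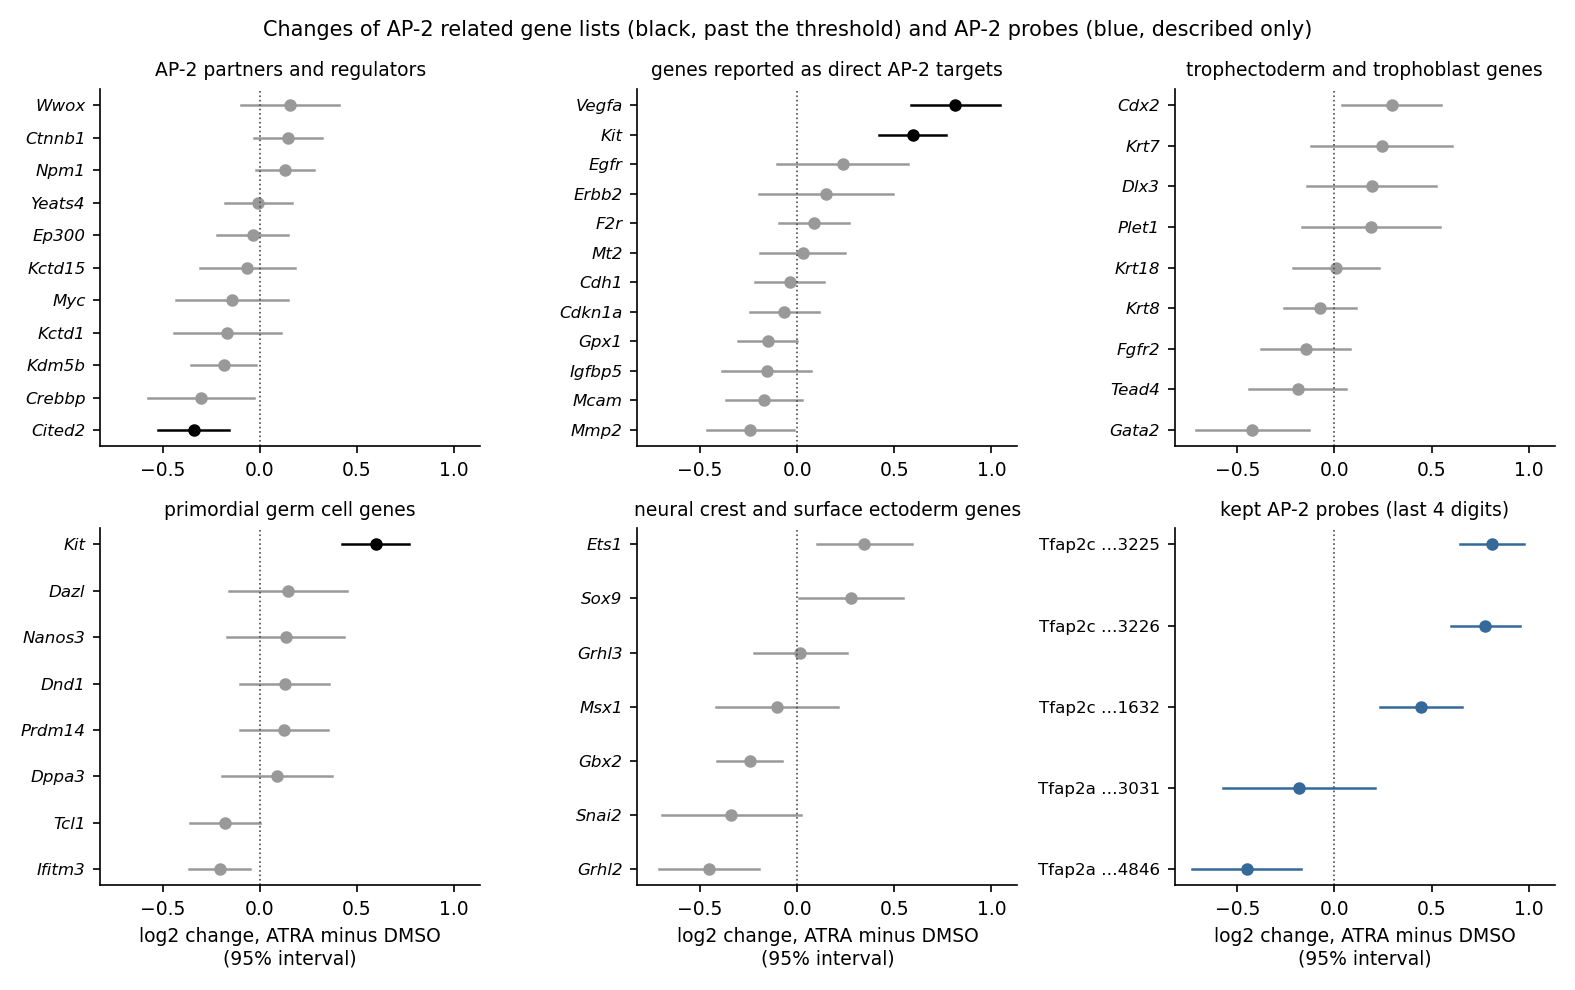
Log2 change (ATRA minus DMSO) with its 95% interval for every kept gene of the 5 AP-2 related lists, and for the 5 kept AP-2 probes; in the lists black passed the adjusted p threshold and grey did not, and the AP-2 probes (blue) are shown without calls. Vegfa and Kit lie above 0 and Cited2 below it, while none of the 9 trophectoderm genes passed, where 1.82% of all measured genes did.

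The promoters are shown for the genes of the AP-2 related lists that rose, Kit and Vegfa, for Tfap2a as the other detected AP-2 gene, and for Cyp26a1 as a known retinoic acid target. The promoter sequences used here hold no entry for Tfap2c. RefSeq sequences of GRCm38.p6 were searched on both strands for the AP-2 palindromes, GCC and GGC with 3 or 4 bases between them, and for a direct repeat of retinoic acid receptor half-sites, AGNTCA and AGNTCA with 5 bases between them, where N is any base, from 250 bases before the transcript start to 50 after it. Capitals mark the matches, which did not overlap one another in these promoters. The coordinates are chr5:75574737-75575036 on the plus strand for Kit, chr17:46032328-46032627 on the minus strand for Vegfa, chr13:40734871-40735170 on the minus strand for Tfap2a and chr19:37697558-37697857 on the plus strand for Cyp26a1.
Kit: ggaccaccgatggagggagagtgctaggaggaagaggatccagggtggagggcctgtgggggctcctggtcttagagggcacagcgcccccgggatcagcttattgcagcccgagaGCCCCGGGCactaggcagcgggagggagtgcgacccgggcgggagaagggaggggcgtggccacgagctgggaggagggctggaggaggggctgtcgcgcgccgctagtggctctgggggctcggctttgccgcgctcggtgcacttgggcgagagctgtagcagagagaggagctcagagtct
Vegfa: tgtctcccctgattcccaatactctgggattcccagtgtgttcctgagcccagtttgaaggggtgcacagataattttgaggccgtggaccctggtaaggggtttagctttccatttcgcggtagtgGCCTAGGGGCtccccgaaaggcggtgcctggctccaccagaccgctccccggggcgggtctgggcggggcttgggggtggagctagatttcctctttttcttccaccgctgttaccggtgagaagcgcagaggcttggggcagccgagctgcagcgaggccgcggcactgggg
Tfap2a: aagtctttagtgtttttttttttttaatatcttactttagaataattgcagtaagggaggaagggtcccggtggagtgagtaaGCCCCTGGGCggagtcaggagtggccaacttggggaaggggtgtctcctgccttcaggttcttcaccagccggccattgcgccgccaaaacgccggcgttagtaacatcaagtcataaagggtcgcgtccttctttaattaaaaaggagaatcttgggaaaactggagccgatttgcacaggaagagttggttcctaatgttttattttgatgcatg
Cyp26a1: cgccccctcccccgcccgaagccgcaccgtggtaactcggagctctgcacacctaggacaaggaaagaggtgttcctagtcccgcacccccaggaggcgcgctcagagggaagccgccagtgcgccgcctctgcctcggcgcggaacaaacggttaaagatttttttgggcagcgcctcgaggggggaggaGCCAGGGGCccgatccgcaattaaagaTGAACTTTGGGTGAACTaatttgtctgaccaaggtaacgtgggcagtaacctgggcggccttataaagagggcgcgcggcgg
Each of the first 3 held 1 AP-2 palindrome, beginning 134, 123 and 167 bases before the start, and Cyp26a1 held 1 AP-2 palindrome and 1 receptor repeat. Another listed start of Vegfa and one of Tfap2a held no match, as did the promoters of Tfap2b, Tfap2e and Cited2. Of the stem cell markers that fell, Zfp42 held 1 AP-2 palindrome and Sox2 held no match. Among all 32851 promoters, 16.6% held the palindrome with 3 bases between its arms, 14.8% the one with 4, and 0.204% held the receptor repeat, so an AP-2 palindrome is common. A match is a run of letters and not a measured binding site. Of the genes reported as AP-2 targets, kept or not, 9 of the 15 with a promoter sequence held either palindrome (60%). The share was 29.6% of all 27025 genes with a promoter and 46.3% of 8263 measured genes. Of the measured genes past the threshold, 63 of 120 that were higher with ATRA held one (52.5%) and 9 of 25 that were lower (36%). The median GC content of these promoters was 60.7% for the reported targets, 62.6% for the higher genes and 55.7% for the lower genes. It was 60.7% for all measured genes and 52.8% for all genes with a promoter. The part of base composition in these shares was not tested.

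The genes closest to Tfap2c over the 4 arrays were found by the root mean square difference to ILMN_2783225 after each probe's own mean was subtracted. They were Icam1, an adhesion molecule gene, at 0.029 on the log2 scale, the ERK phosphatase gene Dusp5 at 0.031, the epithelial ETS factor Elf3 at 0.035, the co-repressor family gene Tle6 at 0.036 and Vegfa at 0.038. Icam1 had log2 levels of 9.79 and 9.78 with ATRA, against 9.06 and 8.90 with DMSO, and a change of 0.81. Dusp5, Elf3 and Tle6 had changes of 0.87, 0.82 and 0.82. A likeness over 4 arrays rests almost wholly on the size of the group difference. The set was not stable: without background correction 1 of the 5 was again among the closest 5, without DMSO replicate 2 also 1, without ATRA replicate 1 and with an offset of 50 there were 2, and without ATRA replicate 2 there were 3.

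**Figure D5:**
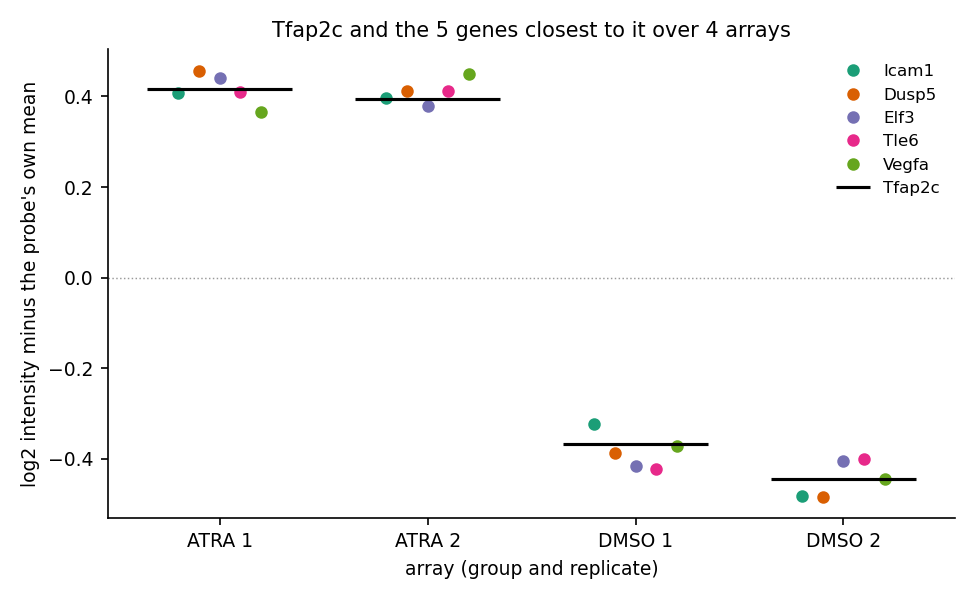
Log2 intensity minus each probe's own mean on the 4 arrays for Tfap2c (bars) and the 5 genes closest to it (points). All 6 lie above 0 on both ATRA arrays and below 0 on both DMSO arrays, which for the 5 follows from their choice by closeness to Tfap2c.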

How the data were processed

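RNA of E14 cells was measured on 4 single-colour Illumina bead arrays. GenomeStudio produced the values, per the submitters' processing notes; its version and steps are not given in the sources used here. The authors deposited a linear intensity and a detection p-value for each probe and array, per the file headers; sorted intensities differed by at most 0.228 between arrays, so they were already quantile normalized, and a shift common to most probes cannot be measured. The deposited series matrix holds the same intensity minus 93.5.

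The neqc function of limma 3.58.1 (R 4.3.3) corrected the background, added an offset of 16, quantile normalized and took log2. Probes with detection p under 0.05 on at least 2 arrays were kept (19112 of 45281), whatever the group; genes in lists stand by their brightest kept probe. The ATRA against DMSO test used lmFit and eBayes (trend on intensity), with Benjamini-Hochberg adjustment over all kept probes, and was tested on simulated data. With 2 arrays a group an exact permutation test of 1 gene cannot pass the threshold, so none was run; the number of arrays limits the precision. Detection ranged from 40.1% to 42.3% of probes.

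Gene names come from the platform annotation (34885 with 1 symbol, 18 with several, 10378 unnamed here), with 34807 matched to RefSeq. The members and lists were chosen with earlier results of these data known. Named in the text were all AP-2 probes, list members that passed and up to 4 more per list by highest level, Cyp26a1, and the 5 genes closest to Tfap2c. Others, named from counts of at most 5, as undetected members or as list members of interest (Kctd1, Kctd15, Ctnnb1, Crebbp, Dnd1, Gata2, Tbx3, Rarb), were chosen after their values were seen. Alternatives changed the background correction, offset, quantile step, source table, filter, trend, block and arrays.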

Additional observations from a re-analysis of the deposited data

How the results depend on the processing

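With no background correction, an offset of 50, no second quantile step, the series matrix values, no filter and a detection p under 0.01, the probes past the threshold numbered 302, 304, 305, 295, 250 and 290, against 302 as reported. Without the intensity trend 74 passed, without ATRA replicates 1 and 2 133 and 147, and without DMSO replicates 1 and 2 495 and 956, where the lone array is assumed to vary like the others. The replicate numbers are shared only as numbers: same-numbered deviations correlated by -0.003, and with the replicate block 492 probes passed. In that fit with the replicate block the neural crest count was 1 (Grhl2). No other list count and no AP-2 probe changed its call with the block. The partner count, 1 as reported, was 0 without background correction, with the series matrix values, with no filter, with detection p under 0.01 and without the trend, and 0 to 3 with arrays left out. Without the trend the target count was 1 and the germ cell count 0; with arrays left out these ranged from 2 to 3 (Mmp2 added without DMSO replicate 1) and from 1 to 2, and the neural crest count from 0 to 1. The trophectoderm count was 0 under every setting run. Counting a gene by any kept probe changed no count of the 5 AP-2 related lists, and of the marker lists it added 1 gene, Tbx3, as higher among the stem cell markers. Tfap2c ILMN_1231632 missed the threshold without the trend (change 0.45) and ranged from 0.41 to 0.48 with arrays left out. Tfap2a ILMN_2913031 ranged from -0.39 to 0.025 with arrays left out, turning positive (0.025) without ATRA replicate 2, and was not kept at a detection p under 0.01. Signal over background limits Tfap2b and Tfap2e, which were detected on no array. It also limits Tfap2a, of which only ILMN_2764846 was detected on all 4 arrays, at 122.8 to 143.8.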
